A study of Equus caballus with 11 samples.

Results

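At 1158 of the 68147 CpG sites compared here (1.7%), the mean methylation levels of heart, lung and liver of the horse stood at least 15 percentage points apart. A lowest, a middle and a highest tissue could thus be named at each site by the means. The libraries of all 3 tissues were free of overlap at only 450 of these stepwise CpGs. These stepwise CpGs were chosen from the measured levels themselves. A site on chromosomes 1 to 31 had to be read at least 10 times in every library after its strands were combined, and its level in a tissue was the unweighted mean of the libraries' percent of reads with C. It was kept where the lowest and the middle tissue, and the middle and the highest tissue, both differed by at least 15 percentage points, and where no library of the lowest tissue reached a library of the highest. All differences between tissues at the chosen sites, and every count by order, therefore describe the choice. A site-wise test of these differences is given further on for its error alone, and supports nothing. Each of the 6 possible orders is written with the lowest tissue first, so that heart<lung<liver stands for sites lowest in heart and highest in liver.

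The levels come from reduced representation bisulfite sequencing (RRBS). DNA is cut at CCGG and short fragments are kept, and after bisulfite treatment a cytosine appears as C only if it was methylated and otherwise as T. The samples were the left ventricle of the heart, the caudal lobe of the right lung and the right lobe of the liver of 4 healthy cold-blooded stallions aged 1 to 2 years, collected at slaughter, with no treatment in any group. The analysis used 4 heart, 4 lung and 3 liver libraries. Horses 1, 2 and 4 gave all tissues and horse 3 heart and lung, and liver of horse 3 was not analysed here.

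In mammals most CpGs outside CpG-dense promoters are methylated, and the methyl group is copied to the new strand after DNA replication, so that a cell type passes its pattern on. On one DNA molecule a CpG is either methylated or not, and a level between the extremes in a piece of tissue is the share of molecules that carried the methyl group. Heart muscle, lung and liver are each built of several cell types, among them muscle cells, epithelia, hepatocytes, endothelium, fibroblasts and blood cells. A middle level in bulk tissue can thus come from a mixture of cells at different levels or from one cell type at that level, and these cannot be told apart here.

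The libraries held from 3255257 reads summed over listed positions (liver of horse 2) to 25109840 (liver of horse 1). At the stepwise CpGs the median depth was 14 reads in liver of horse 2, 17 in lung of horse 3 and 21 to 46 in the other libraries. The 95% Wilson interval of a library's level at a stepwise CpG had a median width of 30.2 points over all libraries, 23.7 in heart of horse 1 and 41.1 in liver of horse 2. The interval covers counting error only, since reads of a position may be PCR copies. Over the 68147 sites, the library that correlated best with a given one was of the same tissue for 11 of 11.

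Lung was the middle tissue at most stepwise CpGs. The order liver<lung<heart held 373 sites and its mirror image heart<lung<liver 364, so that lung stood in the middle at 737 of 1158 (63.6%). Heart stood in the middle at 289 sites (25%), of which 161 were liver<heart<lung and 128 lung<heart<liver. Liver stood in the middle at 132 (11.4%), with 70 in the order heart<liver<lung and 62 in lung<liver<heart. Over all 68147 sites, whatever the size of the differences, lung was in the middle at 39.1%, heart at 31.4% and liver at 29.5%. At the 5253 sites where the highest and the lowest tissue differed by at least 30 points without overlap, 54.0% had lung in the middle, 29.7% heart and 16.3% liver. The stepwise CpGs were 22.0% of those sites.

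**Figure D1:**
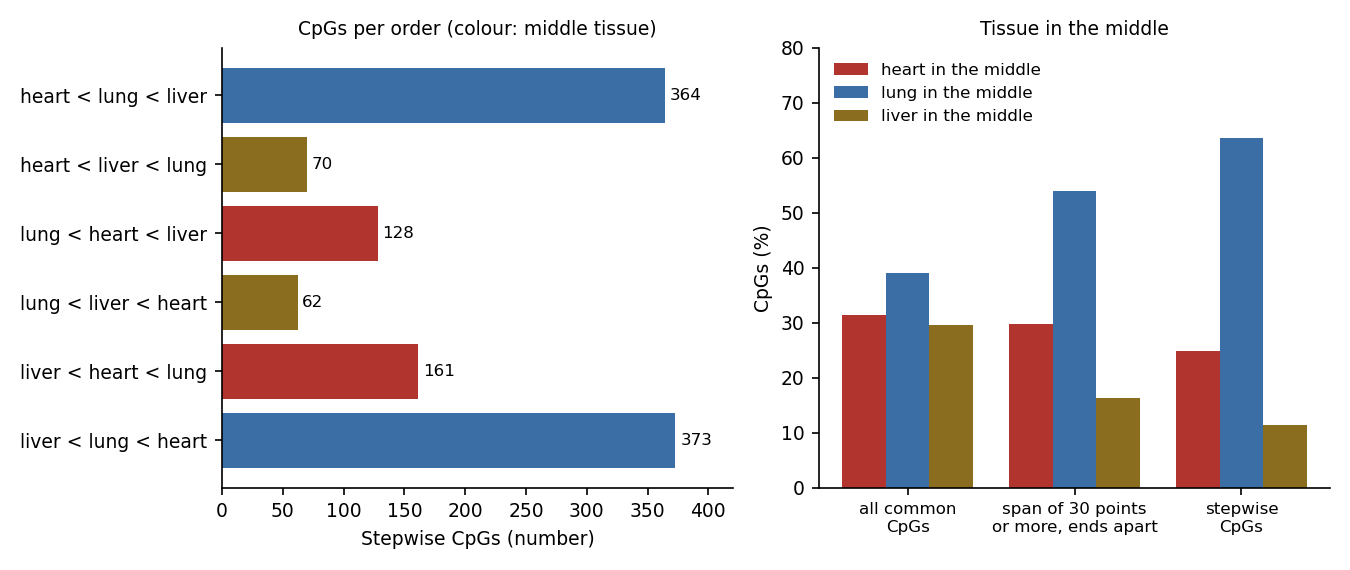
Left, number of stepwise CpGs in each of the 6 orders, bars coloured by the middle tissue. Right, percent of CpGs with each tissue in the middle among all common CpGs, among the 5253 with a span of 30 points or more and no overlap of the end tissues, and among the 1158 stepwise CpGs, where lung took 63.6%.

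Liver and heart stood at the ends more often than lung. Liver was the lowest tissue at 534 stepwise CpGs and the highest at 492, heart at 434 and 435, and lung at 190 and 231. At these limits the mirror orders held 373 against 364, 161 against 128 and 70 against 62 sites in the order named above. The balance depended on the limits. With steps of 20 points the counts were 151 against 76, 50 against 31 and 16 against 16. With steps of 10 points they were 871 against 982, 437 against 473 and 300 against 263.

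The median stepwise CpG had a level of 32.4% in its lowest tissue, 57.8% in the middle tissue and 79.8% in the highest. The span from lowest to highest tissue ran from 30.8 to 77.3 points with a median of 44.1. The middle tissue lay close to midway, at a median of 51.8% of the span above the lowest tissue (quartiles 45.7 and 58.9%). The median SD between libraries was 8.68 points in the lowest, 9.83 in the middle and 6.98 in the highest tissue. Sites in the order liver<lung<heart had the highest median span, 48.4 points, with medians of 34.2% in liver, 62.1% in lung and 85.2% in heart. Sites in the order lung<liver<heart had the lowest, 41.4 points. The lowest tissue was below 20% at 244 of the 1158 sites, and the highest tissue exceeded 80% at 578.

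At 980 stepwise CpGs (84.6%) every library of the middle tissue lay between the means of the end tissues. The 3 tissues of a horse stood in the order of the site in horse 1 at 91.6% of the stepwise CpGs, in horse 2 at 91.2% and in horse 4 at 89.9%. All of these horses showed the order at 864 sites (74.6%), against 8.75% of all 68147 sites. At 46 stepwise CpGs (3.97%) the libraries of a tissue differed by 50 points or more, against 2.63% of all sites. Since these horses' own libraries chose the sites, the shares describe how evenly the horses carried the choice.

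**Figure D2:**
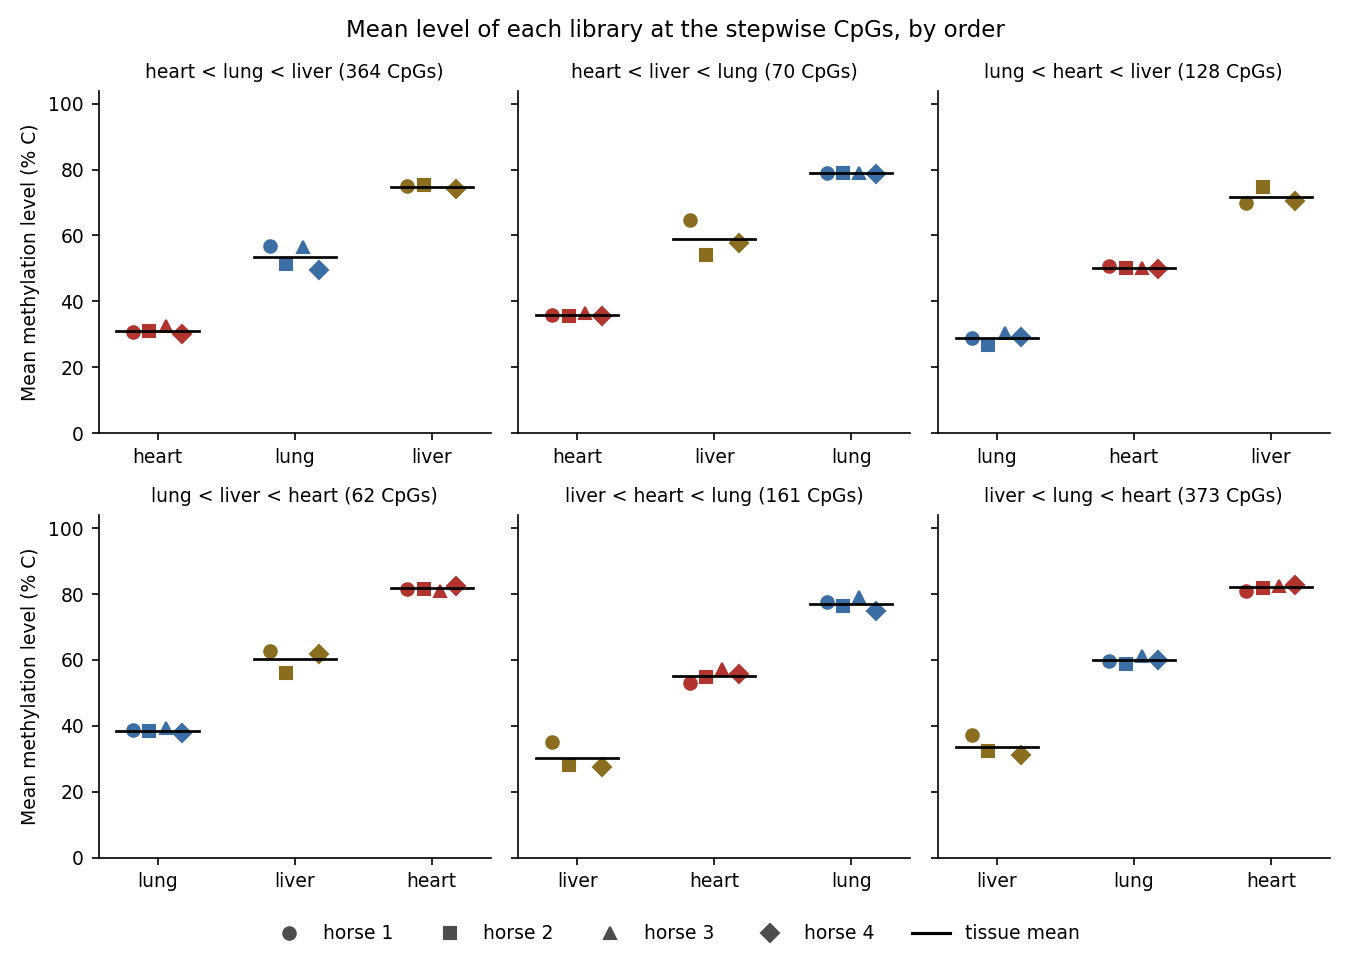
Mean methylation level (percent of reads with C, averaged over the stepwise CpGs of an order) of each library, 1 panel per order, tissues from lowest to highest, symbols for horses and a line for the tissue mean. In liver<lung<heart the livers lay at 31.3 to 37.3%, the lungs at 58.7 to 61.2% and the hearts at 81.0 to 82.9%.

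Averaged over the sites of an order, most libraries of a tissue lay close to each other. In heart<lung<liver the lungs of horses 1 to 4 averaged 56.7, 51.4, 56.4 and 49.4%, between hearts at 30.0 to 32.4% and livers at 74.1 to 75.3%. In heart<liver<lung the livers averaged 64.7% in horse 1, 54.0% in horse 2 and 57.8% in horse 4. In lung<liver<heart the shallow liver of horse 2 was again the lower one at 55.9%, against 62.8 and 61.8% in horses 1 and 4. In every order the library averages of the middle tissue stood apart from those of the ends.

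The rule asked for no overlap only between the end tissues. At 450 stepwise CpGs (38.9%) no pair of tissues overlapped, beside 1.64% of all sites. Such sites made up 179 of 373 in liver<lung<heart, 112 of 364 in heart<lung<liver, 62 of 161 in liver<heart<lung, 51 of 128 in lung<heart<liver, 23 of 70 in heart<liver<lung and 23 of 62 in lung<liver<heart. A further 30 sites had both steps of 15 points but overlapping end tissues, and were left out. End tissues without overlap were present at 29.3% of all sites, and both steps at 1.74%.

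A site-by-site test describes the error of the single steps. In a quasi-likelihood F test on methylated and unmethylated read counts with Benjamini-Hochberg adjustment over the 68147 sites, an adjusted p below 0.01 was reached between heart and liver at 788 stepwise CpGs (68.0%, beside 7.66% of all sites). Lung and liver differed at 403 (34.8%, beside 4.44%), and lung and heart at 382 (33.0%, beside 4.46%). Both steps of a site passed at 73 stepwise CpGs (6.30%, beside 0.117% of all sites), of which 43 were liver<lung<heart, 12 liver<heart<lung, 7 heart<lung<liver, 5 lung<heart<liver, 4 lung<liver<heart and 2 heart<liver<lung. These contrasts chose the sites, so nothing is read from the shares. The count of 73 rested on each library: it fell to between 24 (without lung of horse 2) and 53 (without heart of horse 2) when libraries were left out singly. It was 36 with horse as a term in the model and 285 at an adjusted p below 0.05. With each site's own dispersion it was 0, and that test called 0 sites for lung against heart, although 11581 had an unadjusted p below 0.05. At the other stepwise CpGs at least 1 of the steps missed the threshold.

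At the lower limit of the rule, membership turned on fractions of a point. The 3 sites nearest inside had smaller steps of 15.006, 15.017 and 15.018 points, and the 3 nearest outside 14.992, 14.992 and 14.991. Smaller steps of 15 to 16 points were found at 220 stepwise CpGs, and 266 sites had the step between 14 and 15 points and so lay outside.

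The stepwise CpGs had fewer listed CpGs around them than all sites read. A CpG counts as listed where any library has deposited reads for it, so the count depends on what was sequenced. A median of 2 other listed CpGs lay within 100 bp, against 3 over all 68147 sites, and 4.15% of the stepwise CpGs had 10 or more such CpGs, against 12.6%. The share was 5.77% in heart<lung<liver and 5.09% in liver<lung<heart. In liver<heart<lung it was 1.24%, in heart<liver<lung 1.43%, in lung<heart<liver 3.91%, and in lung<liver<heart 0 of 62 sites had 10 or more. Both strands were read at 17.9% of the stepwise CpGs and at 23.2% of all sites. Of the stepwise CpGs, 26 had at least 5 reads on each strand in every library, and the forward and the reverse strand gave the same order at 26 of these 26. The combined reads of both strands chose these sites, so nothing is read from the agreement. The number of stepwise CpGs per 1000 sites read was 17.0 over the genome, and ran from 7.94 on chromosome 26 and 9.28 on chromosome 13 to 25.5 on chromosome 11 and 30.2 on chromosome 17.

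Neighbouring stepwise CpGs had the same order. When members of an order no more than 200 bp apart were joined, the 1158 sites formed 902 runs, of which 717 were single sites and 185 held 2 or more, with 441 sites (38.1%) among them. Runs of 3 or more numbered 44 and held 159 sites. Of 251 consecutive stepwise CpGs no more than 75 bp apart, 251 had the same order. The read length was 75 bp, so that such sites can lie on the same reads and are not independent measurements. Of 8 consecutive pairs 76 to 1000 bp apart, 6 had the same order, and in the other 2 pairs the highest tissue was the same while the lowest and middle tissues were exchanged.

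The run with the most sites lay at chr8:23433499-23433726 of EquCab3.0 and held 9 stepwise CpGs among 10 sites read over 228 bp, all in the order liver<lung<heart. Averaged over the 10 sites read, the hearts of horses 1 to 4 had levels of 77.5, 77.2, 74.1 and 75.2%. The lungs had 59.0, 53.5, 62.9 and 45.5%, and the livers of horses 1, 2 and 4 had 30.9, 27.3 and 25%. No pair of tissues overlapped, and heart exceeded lung by 20.8 points and lung exceeded liver by 27.5. The 9 stepwise CpGs covered a wide part of the scale, with site means of 10.4 to 40.5% in liver, 26.9 to 77.5% in lung and 43.2 to 95.5% in heart. They shared the order and not the level.

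**Figure D3:**
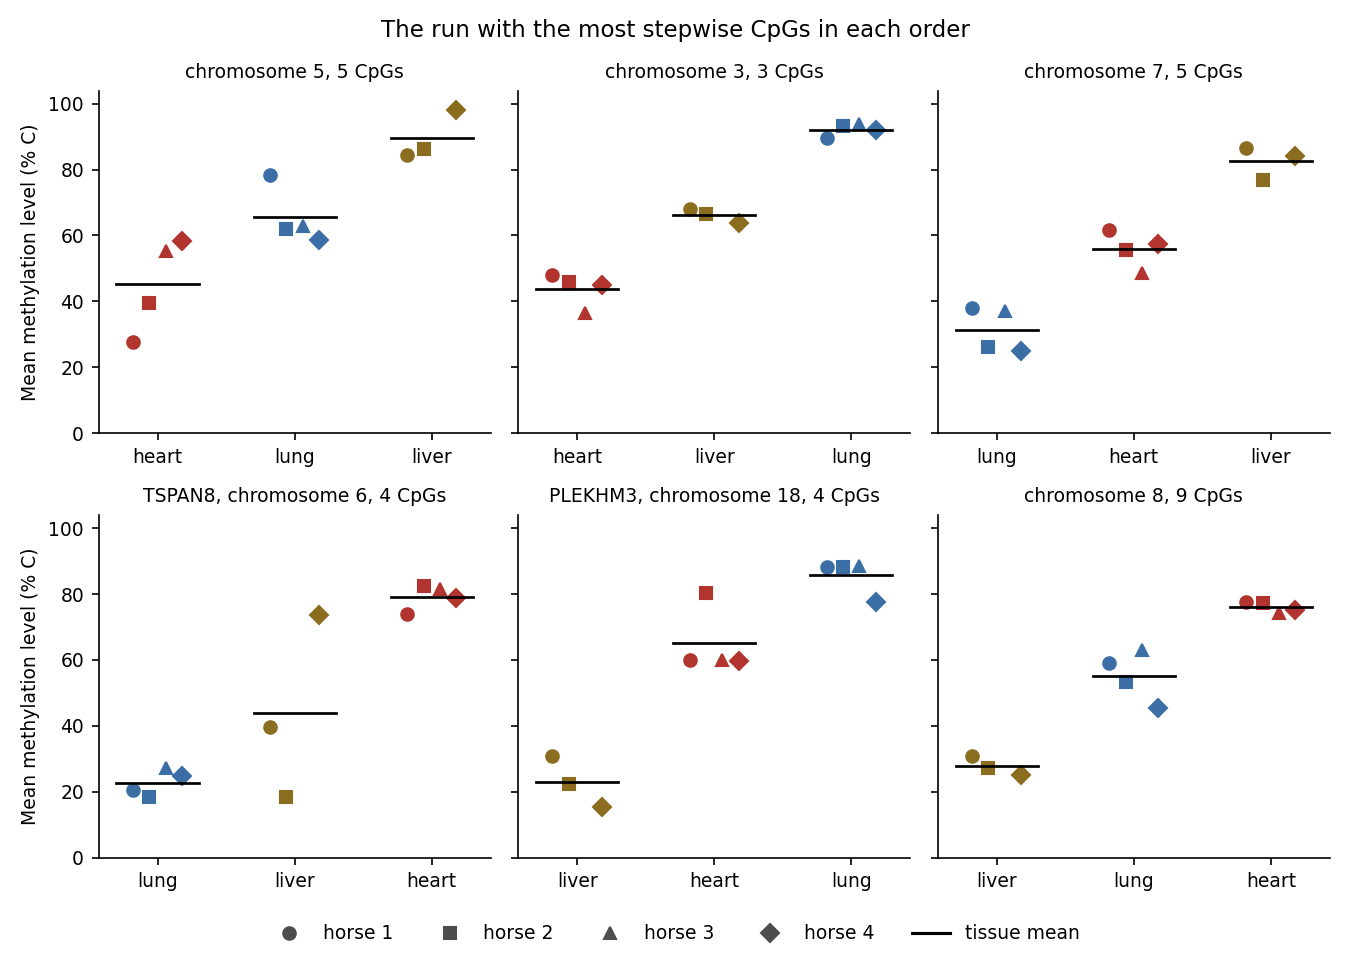
Mean methylation level (percent of reads with C) of each library over the run with the most stepwise CpGs in each order, tissues from lowest to highest, symbols for horses and a line for the tissue mean. Over the 10 sites read in the run of 9 stepwise CpGs on chromosome 8, livers lay at 25 to 30.9%, lungs at 45.5 to 62.9% and hearts at 74.1 to 77.5%. The livers in the TSPAN8 run spread from 18.5 to 73.5%.

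Genes were taken only from the study's own lists of differentially methylated sites on the same build, which hold part of the positions. A stepwise CpG thus has a gene here only if the study called that position, or called positions on either side of it within a gene. The counts of genes follow those calls. It gave a gene symbol to 343 of the 1158 stepwise CpGs, in 256 genes, of which 280 were placed in introns, 16 upstream of a gene, 12 downstream, 12 in coding exons, 4 in 5′ untranslated regions, 3 in 3′ untranslated regions and 16 inside a gene without a class. The other 815 have no gene here, which says nothing of where they lie. Of 17 genes with 3 or more stepwise CpGs, 12 held them in a single order. In these, except IQCA1 (157 bp) and SHANK2 (195422 bp), the sites lay within 14 to 52 bp and can share reads. In the 5 genes with different orders the sites spread over 5541 to 132458 bp.

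In the order liver<lung<heart, the second run held 7 CpGs at chr11:12809028-12809095, of which 5 were placed in AXIN2, which encodes a scaffold protein that restrains Wnt signalling. Mean levels over the 8 sites read in the run were 93.3, 94.1, 89.2 and 97.1% in the hearts and 79.0, 53.4, 76.2 and 73.9% in the lungs of horses 1 to 4. The livers of horses 1, 2 and 4 had 49.3, 63.9 and 41.3%. All hearts stood above all lungs and livers, while the liver of horse 2 stood above the lung of the same horse, so that lung and liver overlapped.

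SLC6A11, a transporter that takes up the neurotransmitter GABA, had 4 stepwise CpGs within 48 bp of an intron on chromosome 16. At the named site, chr16:7625216-7625217, the livers had 26.1, 23.1 and 10%, the lungs of horses 1 to 4 had 37.9, 69.0, 62.5 and 61.3%, and the hearts had 88.9, 84.8, 84.4 and 92.0%. The 3 tissues did not overlap, and the steps were 38 and 29.8 points.

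An intron site of STXBP5, whose product tomosyn binds syntaxin and restrains vesicle fusion, lay at chr31:19241661-19241662. It had 20% in each of the 3 livers, 63.9, 28.9, 73.3 and 57.7% in the lungs and 94.0, 86.1, 88.9 and 85.7% in the hearts. The lungs covered 44.4 points and still stayed clear of the other tissues. In MAP3K13, a kinase upstream of JNK signalling, the intron site chr19:25956667-25956668 had 15.2 to 25% in the livers, 37.9 to 79.3% in the lungs and 80.4 to 93.6% in the hearts.

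NR6A1, an orphan nuclear receptor that represses transcription, had an intron site at chr25:29326366-29326367 with 11.1, 10 and 13.6% in the livers, 34.5, 53.8, 47.4 and 33.3% in the lungs and 93.5, 76.9, 57.1 and 73.7% in the hearts. Its hearts were more spread than its livers, and no pair of tissues overlapped. The site with the largest smaller step of all 1158, chr18:77591882-77591883, carried no gene in the annotation used. Its livers had 21.1, 18.2 and 8.70%, its lungs 42.3, 59.3, 53.8 and 52.9%, and its hearts 100, 93.1, 92.3 and 60%, and both steps exceeded 34 points (36.1 and 34.3). The heart of horse 4, read 10 times there, lay 0.741 points above the lung of horse 2.

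Further genes with 3 or more stepwise CpGs in this order were IQCA1 with 4 on chromosome 6 and ERRFI1 with 3 on chromosome 2. In ERRFI1, a feedback inhibitor of the EGF receptor, the 3 sites averaged 42.6% ± 6.39 across the livers (SD, n = 3), 73.9% ± 12.0 across the lungs (n = 4) and 97.5% ± 2.43 across the hearts (n = 4). In IQCA1 the values were 43.0% ± 1.98, 71.5% ± 5.26 and 93.8% ± 0.933. Both genes were nearly fully methylated in heart and stood a little under the middle of the scale in liver.

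In the mirror order heart<lung<liver, the run with the larger span among those of 5 CpGs lay at chr5:13850594-13850659 and carried no gene. Its hearts had 27.8, 39.4, 55.3 and 58.2%, its lungs 78.3, 61.9, 63.0 and 58.7%, and its livers 84.6, 86.2 and 98%. No pair of tissues overlapped, though the highest heart and the lowest lung, both of horse 4, were only 0.485 points apart. The second run, at chr3:34321608-34321643, held 6 sites read, of which 5 were stepwise CpGs. Averaged over the 6, the hearts had 25.2 to 34.6%, the lungs 34.7 to 63.5% and the livers 65.5 to 68.3%.

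PRDM11, a member of the PR domain family of transcription regulators, had 3 stepwise CpGs of this order in an intron on chromosome 12. At chr12:9938962-9938963 the hearts had 8.86, 12.0, 6.25 and 5.88%, the lungs 45.2, 32.2, 29.4 and 34.8%, and the livers 52.5, 72.0 and 67.9%. The tissues did not overlap, and the steps were 27.1 and 28.7 points. The site with the largest smaller step in this order, chr15:70491885-70491886 with no gene, had hearts at 6.67 to 27.8%, lungs at 30.8 to 62.5% and livers at 84.0 to 86.7%.

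An intron site of ARPC4, a subunit of the Arp2/3 complex that starts actin branches, lay at chr16:8495502-8495503. Its hearts had 37.5, 17.8, 32.0 and 50%, its lungs 55.9, 62.8, 61.1 and 65.4%, and its livers 88.9, 100 and 97.0%. No tissues overlapped. In MYO16, an unconventional myosin, the intron site chr17:76432230-76432231 had hearts at 8.33 to 30.8%, lungs at 33.3 to 66.7% and livers at 65.7 to 100%, so that lung and liver met in a narrow band.

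Upstream of ECRG4, which encodes the precursor of a secreted peptide, the site chr15:3777220-3777221 had 21.1, 22.2, 21.7 and 43.8% in the hearts, 42.4, 64.9, 53.8 and 60% in the lungs and 80, 83.3 and 84.0% in the livers. The heart of horse 4 exceeded the lung of horse 1, and the livers stood above both tissues. SHANK2, a scaffold of synapses and epithelia, held 4 stepwise CpGs of this order spread over 195422 bp, with averages of 50.3% ± 4.03 in heart, 68.5% ± 7.31 in lung and 86.7% ± 2.10 in liver. NTN1, a guidance molecule of growing axons, held 3 within 14 bp, with averages of 32.2% ± 4.75, 53.1% ± 13.3 and 79.0% ± 11.7.

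With heart in the middle and liver lowest, the runs of 4 CpGs were at chr18:82026237-82026266 partly in an intron of PLEKHM3, a protein with pleckstrin homology domains (1 of the 4 CpGs was listed there), and at chr28:34249422-34249468 with no gene. Over the PLEKHM3 run the livers had 30.9, 22.2 and 15.4%, the hearts 60, 80.4, 60.1 and 59.7%, and the lungs 88.3, 88.3, 88.5 and 77.5%. The heart of horse 2 exceeded the lung of horse 4, and the other libraries of these tissues were apart. On chromosome 28 the livers had 27.2, 12.5 and 15.2%, the hearts 53.3, 38.6, 50.9 and 45.2%, and the lungs 84.5, 75.0, 80.8 and 82.3%, with no overlap between any tissues.

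ASAP1 activates the GTPase of Arf proteins in membrane traffic, and its intron site chr9:73407309-73407310 was among the deeper ones, with 22 to 92 reads per library. Its livers had 18.5, 9.09 and 17.0%, its hearts 58.6, 52.0, 60 and 48.7%, and its lungs 86.8, 92.7, 84.4 and 78.9%. The tissues were well apart, with steps of 40 and 30.9 points. RAB31, a small GTPase of vesicle transport, had an intron site at chr8:37638714-37638715 with livers at 7.14 to 18.2%, hearts at 23.8 to 43.8% and lungs at 74.4 to 81.8%.

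Upstream of LGMN, which encodes the lysosomal protease legumain, the site chr24:35750731-35750732 had 57.1, 30.8 and 35.3% in the livers, 71.1, 60.7, 73.7 and 61.5% in the hearts and 85.0, 100, 100 and 93.3% in the lungs. ARSG, a lysosomal sulfatase, had an intron site at chr11:12324776-12324777 with livers at 25 to 35.7%, hearts at 45.9 to 65.2% and lungs at 70.0 to 95.7%. No tissues overlapped at either site. PNKD held 3 stepwise CpGs of this order on chromosome 6, with averages of 24.7% ± 9.37 in liver, 54.4% ± 11.4 in heart and 75.9% ± 15 in lung. At chr21:7966632-7966633, with no gene, the livers had 0 to 24.2%, the hearts 29.4 to 52.4% and the lungs 62.5 to 84.6%.

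With heart in the middle and lung lowest, the runs of 5 CpGs were at chr7:98873646-98873709 with no gene and at chr15:83209486-83209537 in an intron of LPIN1, the phosphatidate phosphatase lipin-1 of triglyceride synthesis. In LPIN1 the lungs had 10.8, 16.1, 22.9 and 24.8%, the hearts 49.0, 34.8, 46.2 and 41.3%, and the livers 65.7, 71.4 and 70.3%. The 3 tissues did not overlap, with steps of 24.2 and 26.3 points. On chromosome 7 the lungs had 24.9 to 37.9%, the hearts 48.5 to 61.7% and the livers 76.9 to 86.6%.

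KCNIP1, a calcium-binding partner of potassium channels, had 3 stepwise CpGs of this order within 47 bp of an intron. At chr14:9835543-9835544 the lungs had 11.8, 2.86, 0 and 5.26%, the hearts 50, 26.5, 37.5 and 8.33%, and the livers 63.6, 53.8 and 69.0%. The heart of horse 4, read 12 times, stood below the lung of horse 1, and the livers stood above all others. In MGAT5, which adds branches to N-glycans, the intron site chr18:18346714-18346715 had 0 to 13.3% in the lungs, 20 to 44.8% in the hearts and 42.1 to 84.6% in the livers.

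STX8, a SNARE protein of endosomes, had an intron site at chr11:52484696-52484697 at the upper end of the scale. Its lungs had 45.8, 38.9, 44.0 and 52.6%, its hearts 52.9, 77.8, 76.9 and 73.7%, and its livers 89.5, 100 and 90.9%. No tissues overlapped, though the heart of horse 1 lay just above the highest lung. Sites without a gene at chr2:105829971-105829972 and chr21:50440828-50440829 had lungs at 20 to 31% and 15.6 to 46.7%, hearts at 48.5 to 61.8% and 50 to 64.9%, and livers at 73.3 to 91.7% and 81.1 to 87.5%.

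With liver in the middle and heart lowest, the runs named held 3 CpGs each, at chr3:4729650-4729694 and chr3:35694769-35694779, and neither carried a gene. At the first the hearts had 48.0, 45.9, 36.5 and 45.0%, the livers 68.2, 66.7 and 63.7%, and the lungs 89.6, 93.1, 93.8 and 92.1%. At the second the hearts had 19.5, 16.3, 3.51 and 11.1%, the livers 50.3, 40.5 and 28.8%, and the lungs 54.5, 61.3, 62.3 and 58.3%. No tissues overlapped at either run.

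TRIO, a guanine nucleotide exchange factor, had an intron site at chr21:46961170-46961171 with hearts at 22.6 to 56.0%, livers at 60 to 68.4% and lungs at 81.2 to 92.9%.

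In PFKP, the platelet form of the glycolytic enzyme phosphofructokinase, the intron site chr29:31987570-31987571 had hearts at 14.5, 19.0, 12.5 and 23.1% and lungs at 84.6, 78.1, 96.2 and 68.8%. The livers had 79.2, 33.3 and 70.8%, the lowest being that of horse 2, read 12 times. Hearts stood apart, while livers and lungs overlapped. At chr12:8607037-8607038 and chr6:65224954-65224955, with no gene, liver was steadier, at 50 to 63.6% and 50 to 54.8%, between hearts at 26.4 to 35.0% and 20.5 to 33.3% and lungs at 80.6 to 91.7% and 67.9 to 90.0%.

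With liver in the middle and lung lowest, the order had 1 run of 3 or more CpGs. It held 4 at chr6:86791089-86791148, partly in the 5′ untranslated region of TSPAN8, a tetraspanin of cell membranes. The lungs had 20.4, 18.3, 27.1 and 24.7%, and the hearts 73.9, 82.5, 81.5 and 78.9%. The livers had 39.5, 18.5 and 73.5%, with 108 reads over the run in the liver of horse 2, the shallowest library there. Heart and lung were far apart in all horses and did not overlap. The livers covered nearly the whole distance between them, and the mean of 43.9% was close to the liver of horse 1 only.

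GLIS1, a zinc finger transcription factor, had an intron site at chr2:5807039-5807040 with steadier livers, at 64.1, 65.0 and 59.0%. Its lungs had 31.5, 31.6, 57.7 and 38.8%, and its hearts 73.6, 87.8, 92.3 and 88.7%. The lung of horse 3 came within 1.32 points of the lowest liver, and no tissues overlapped. In CTBP2, a corepressor of transcription, the intron site chr1:8129092-8129093 had lungs at 9.09 to 45.8%, livers at 45.5 to 64.5% and hearts at 77.8 to 94.7%.

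Downstream of GNAO1, which encodes the alpha subunit of a G protein abundant in nerve and endocrine cells, the site chr3:9495531-9495532 had lungs at 9.09 to 44.4%, livers at 33.3 to 60.9% and hearts at 70.6 to 88.6%. The lungs and livers overlapped there and at CTBP2, and the hearts stood apart at both sites. At chr14:6188454-6188455, with no gene, the lungs had 24.0 to 40%, the livers 58.3 to 66.7% and the hearts 86.7 to 100%. At chr11:49835061-49835062 they had 8.70 to 30.2%, 40.9 to 50% and 57.1 to 93.8%.

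Of the 41 runs and sites that the naming rule chose, 31 had no overlap between any tissues. The order held in all of horses 1, 2 and 4 at 39 of them, the exceptions being the AXIN2 run in horse 2 and the PFKP site in horse 4. Some genes held stepwise CpGs of different orders, and 5 of the 17 genes with 3 or more did so. SEPTIN9, a filament-forming septin, held 2 CpGs in heart<lung<liver and 2 in the mirror order over 132458 bp, and averaged 51.5% in heart, 54.4% in lung and 50.3% in liver over these 4 sites. FHAD1 held 1 and 2 in the same pair of orders. VASP, a regulator of actin filaments, held 2 CpGs in liver<lung<heart and 1 in lung<heart<liver. MAP2K6, a kinase of the p38 pathway, held 2 in liver<lung<heart and 1 in liver<heart<lung. PPM1L, a protein phosphatase, held 2 in heart<lung<liver and 1 in lung<heart<liver.

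CpGs around the stepwise sites were not used to choose them. Those that met the rule were themselves stepwise CpGs and are left out here, so sites with large steps are missing from the neighbours by construction. Among sites read that were no stepwise CpGs themselves and lay within 75 bp of one, 993 in all, the tissues stood in the order of the nearest stepwise CpG at 79.4%, with a mean span of 29.0 points. At 76 to 200 bp this held at 54.2% of 72 sites with a span of 14.8 points, and at 201 to 1000 bp at 47.4% of 171 sites with 12.0 points. Beyond 1000 and up to 5000 bp it was 19.9% of 593 sites and 0.256 points, and at 5001 to 50000 bp 18.2% of 4255 sites and 0.502 points. The share thus decreased with distance and was about the same in the outer 2 classes. Sites within 75 bp can lie on the same reads as the stepwise CpG, so that class is not independent of the choice.

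**Figure D4:**
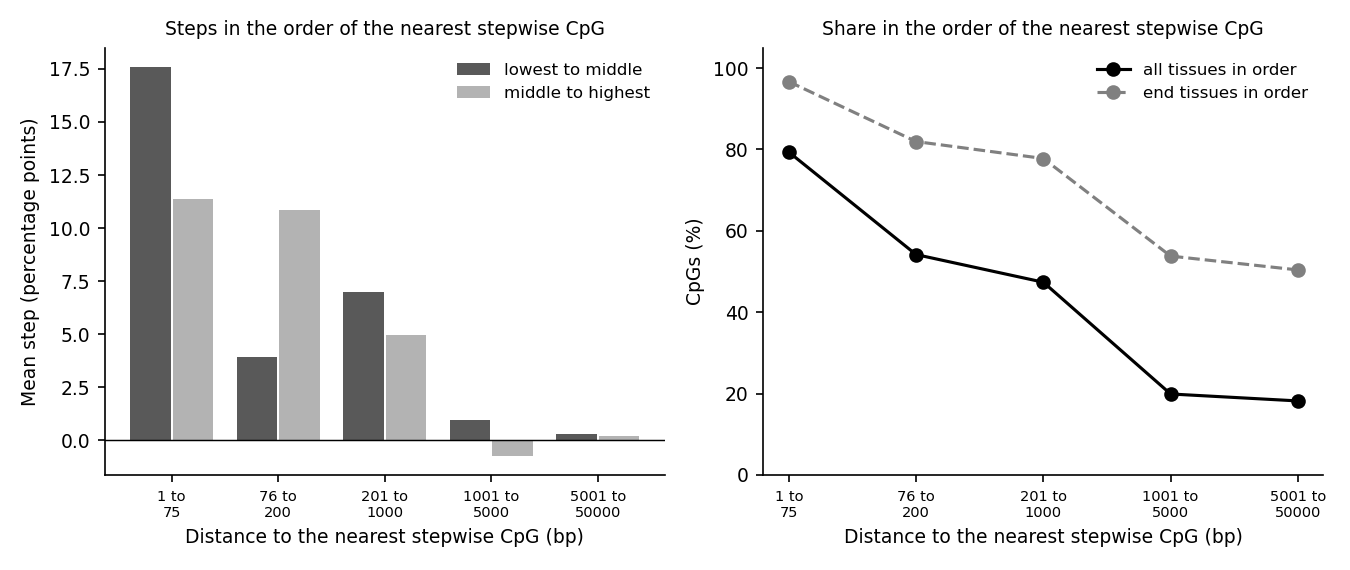
Left, mean step (percentage points) from lowest to middle and from middle to highest tissue at sites that are not stepwise CpGs, in the order of the nearest stepwise CpG, by distance (bp). Right, percent of these sites with all tissues, or the end tissues, in that order, which went from 79.4% within 75 bp to 18.2% beyond 5000 bp for all tissues. Sites within 75 bp can share reads with the stepwise CpG.

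At 76 to 1000 bp, outside the reach of a read that covers the stepwise CpG, the 243 neighbouring sites lay in 86 separate regions, and the end tissues stood in the order of the stepwise CpG in 72 regions (83.7%) and all tissues in 49. For each order, the level of each library was averaged over these sites and the count of library pairs in the order, of 40 pairs in all, was set against all 11550 arrangements of the tissue labels. The pairs stood in the order at 40 of 40 for heart<lung<liver, lung<heart<liver, lung<liver<heart and liver<lung<heart (exact permutation test, one-sided, adjusted p = 0.00013 over the 6 orders in each, from the smallest p the arrangements can give, 8.66e-05). In heart<liver<lung it was 38 of 40 (adjusted p = 0.00083 by the same exact test). In liver<heart<lung it was 31 of 40 (adjusted p = 0.0397). The order tested was itself chosen in these libraries, and the choice was not repeated for each arrangement. Nearby CpGs of a library may have related levels, so these p-values are no independent test of the order. They describe how far the neighbours shared it.

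Around the lung<heart<liver sites, 40 neighbours in 10 regions averaged 51.4% ± 2.76 in lung (SD, n = 4), 63.2% ± 2.06 in heart (n = 4) and 75.4% ± 1.23 in liver (n = 3). The steps of 11.7 and 12.3 points were of about equal size, as at the stepwise CpGs themselves, and each had the smallest p that these libraries allow, 0.0286 (exact permutation test, two-sided on the absolute difference, adjusted p = 0.0429 over the 12 steps). This test, here and for the steps of the other orders, moved libraries between 2 tissues without regard to horse. The pairing of tissues by horse was thus ignored, and no paired test of the steps was run. A single region gave 20 of the 40 neighbours. Around heart<lung<liver, 41 neighbours in 23 regions averaged 66.8% ± 1.08 in the hearts, 76.3% ± 0.684 in the lungs and 80.7% ± 1.18 in the livers. Both steps again had an adjusted p of 0.0429 in the exact permutation test. The end tissues were in order in 21 of the 23 regions.

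Around lung<liver<heart, 18 neighbours in 4 regions averaged 73.6% ± 2.87 in lung, 86.4% ± 2.50 in liver and 92.1% ± 0.463 in heart, with both steps at an adjusted p of 0.0429 (exact permutation test) and 11 neighbours in a single region. Around liver<lung<heart, 86 neighbours in 27 regions averaged 48.3% ± 1.12 in the livers, 52.3% ± 1.36 in the lungs and 60.4% ± 0.501 in the hearts. The step from lung to heart, 8.08 points, had an adjusted p of 0.0429, and that from liver to lung, 4.03 points, 0.0686 (exact permutation test). The end tissues were in order in 21 of the 27 regions.

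In the other orders, as in liver<lung<heart, the middle tissue did not stand apart from both end tissues around the stepwise CpGs by this test. Around heart<liver<lung, 23 neighbours in 5 regions averaged 76.1% ± 0.895 in heart, 79.8% ± 0.477 in liver and 80.6% ± 1.01 in lung. Heart and liver differed by 3.68 points (adjusted p = 0.0429), and liver and lung by 0.804 points (adjusted p = 0.249, exact permutation test). Around liver<heart<lung, 35 neighbours in 17 regions averaged 67.4% ± 3.20 in liver, 66.2% ± 1.24 in heart and 70.4% ± 3.05 in lung. The step from liver to heart was -1.15 points, against the order of the stepwise CpGs (adjusted p = 0.629), and that from heart to lung 4.19 points (adjusted p = 0.0686, exact permutation test). The call for this order was lost when labels were permuted within horses (adjusted p = 0.0579) and in 7 of the 11 fits without a library, those without lung of horses 1 and 2 having the highest adjusted p, 0.0931, with spans of 1.98 and 2.37 points. The adjusted p without a library ran from 0.0054 to 0.0931.

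The sites were also chosen without a horse and then read in that horse. Without the libraries of horse 1 the rule gave 1357 sites, without horse 2 it gave 1291 and without horse 4 it gave 1287. The libraries of the left-out horse showed the full order at 77.5, 69.6 and 70.0% of these sites, and over all 68147 sites, with the order taken from the other horses in the same way, at 28.4, 26.8 and 25.3%. The end tissues stood in order at 98.1, 95.8 and 96.6% of the chosen sites and at 65.5, 63.3 and 61.7% of all. The median span in the left-out horse was 37.3, 37.8 and 38.5 points, below the 44.9, 43.7 and 44.7 points in the libraries that chose the sites.

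**Figure D5:**
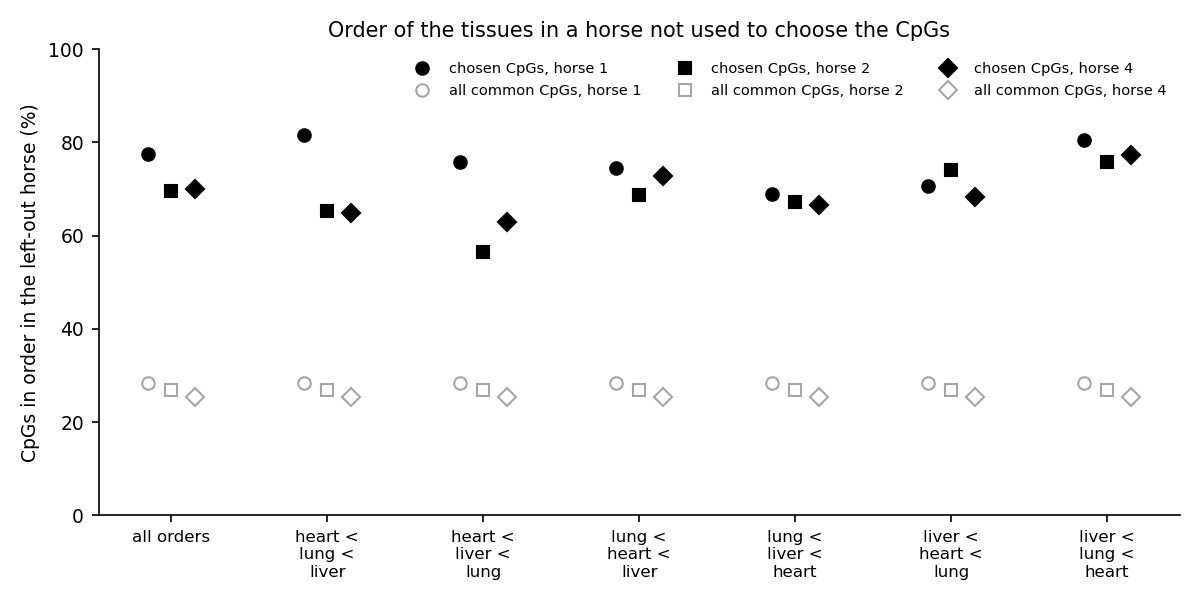
Percent of sites with all tissues in order in horse 1, 2 or 4 when the stepwise CpGs were chosen without that horse (filled), and the same share over all common CpGs (open, repeated for each order). Filled symbols ran from 56.4% for heart<liver<lung in horse 2 to 81.6% for heart<lung<liver in horse 1, and open symbols from 25.3 to 28.4%.

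By order, liver<lung<heart was found in the left-out horse at 80.6, 75.9 and 77.3% of the sites for horses 1, 2 and 4. For heart<lung<liver the shares were 81.6, 65.4 and 64.9%, of 364, 407 and 390 sites, so each horse was read at its own set. Depth differed as well. The median at the stepwise CpGs was 46, 31 and 45 reads in heart, lung and liver of horse 1. It was 38, 38 and 14 in horse 2 and 21, 25 and 28 in horse 4. Whether depth or the horses made the shares differ was not tested. Sites in heart<liver<lung had 75.9, 56.4 and 62.9%, and the 56.4% in horse 2 was the lowest share of any order in these horses. The shares were 74.4, 68.7 and 72.8% for lung<heart<liver, 70.7, 74.0 and 68.3% for liver<heart<lung and 69.0, 67.1 and 66.7% for lung<liver<heart. In each order and horse the share was thus over the one found at all sites, and the spans were smaller than where the sites were chosen.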

How the data were processed

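Per the labels and the study's methods, libraries were prepared with the Ovation RRBS Methyl-Seq System, pooled and read as 75 bp single-end reads. Filtered reads were mapped by the authors to the EquCab3.0 build. The submitters' processing notes list FastQC and BSMAP, with versions not given in the sources used here. For each cytosine of a CpG and strand, the deposited tables hold the coverage as a read count (at least 5) and the percent read as C and as T. Methylated reads were taken as coverage times the deposited percent, rounded, which matched whole reads to within 0.05 points at 99.8% or more of the positions of a library. Strands were combined, and groups and horses were taken from the labels.

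The stepwise rule was applied in Python 3.11.15 (numpy 2.4.6, pandas 2.3.3, scipy 1.17.1). Site-wise tests were logistic models of all 11 libraries with tissue as the term, in which the Pearson dispersion was moderated with squeezeVar of limma 3.58.1 (R 4.3.3) and kept at 1 or above. They gave quasi-likelihood F tests with Benjamini-Hochberg adjustment and were called below 0.01. The prior was fitted on sites with pooled levels from 2 to 98%. Neighbouring sites and the order in libraries left out of the choice were the measures that the rule did not use, and neighbours share the libraries with the sites. The site-wise test and the stepwise rule were run on simulated libraries with known steps, and the neighbour count was not. Figures were drawn with matplotlib 3.10.9.

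For each order, the text names the 2 runs with the most members (at least 3, ties by span), 2 further members with the largest smaller step and no overlap in any pair, and up to 3 more with a gene symbol, 1 per gene. Genes with 3 or more members were added after their values were seen. Gene names and classes come from positions in the study's own lists of differentially methylated sites, of which 3210 were at hand. No methylation value was taken from them, but a position is listed there because the study called it. Of the 41 runs and sites chosen so, 1 is not reported here. Members and rules were chosen with earlier results of these data known. No genome of the build was used here, so no sequences are shown.

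The same number means the same horse. The correlation of library deviations from the tissue mean was 0.0512 to 0.251 between heart and lung of a horse (other horses 0.00431 at most), 0.190 to 0.223 between lung and liver (0.0301) and 0.0519 to 0.185 between heart and liver (0.0595). The main site-wise and neighbour tests had no term for the horse. Horse was run as a block only as an alternative to them.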

Additional observations from a re-analysis of the deposited data

Results flagged for a closer look

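Among 94 sets of 4 heart or lung libraries at the named runs and sites and in the averages by order, 6 had a library far from the other 3 by Dixon's criterion, of about 1 in 20 that chance gives. At chr15:70491885-70491886 (heart<lung<liver) the lung of horse 4 had 30.8%, the other lungs 59.1 to 62.5%. Upstream of ECRG4 the heart of horse 4 had 43.8%, the others 21.1 to 22.2%. At STX8 the heart of horse 1 had 52.9%, the others 73.7 to 77.8%. In the PLEKHM3 run the heart of horse 2 had 80.4%, the others 59.7 to 60.1%, and the lung of horse 4 had 77.5%, the others 88.3 to 88.5%. At RAB31 the heart of horse 3 had 23.8%, the others 40.9 to 43.8%.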

How the results depend on the processing

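The number of stepwise CpGs followed the limits of the rule. It was 4355 of 218903 sites with at least 5 reads and 130 of 13624 with at least 20 (9.54 per 1000 sites, against 17.0), 3326 with steps of 10 points, 340 with 20 points and 450 with no overlap in any pair. It was 1123 with reads pooled per tissue, 1188 without the overlap condition, 1149 on single strands, 1155 without very deep sites and 1134 to 1357 without a library or a horse. Lung was the middle tissue at 55.7 to 66.9% of sites in all of these settings. Site-wise calls numbered 3036 between heart and lung, 3029 between lung and liver and 5222 between heart and liver, and with horse as a block, the paired fit, 2604, 2222 and 4265. They were 6187, 5733 and 8882 at an adjusted p below 0.05, and 0, 14 and 1011 with each site's own dispersion (11581, 10676 and 13349 at an unadjusted p below 0.05). Without a library they ran from 1800 to 3043, 1516 to 3245 and 2717 to 5287. The counts moved by over 1.5 times without heart of horse 1, lung of horse 1 or lung of horse 2 (2021, 1918 and 1800 for lung against heart), without lung of horse 2, liver of horse 1 or liver of horse 4 (2003, 1516 and 1866 for lung against liver) and without liver of horse 1 (2717 for heart against liver).

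At the neighbours, permuting labels within horses, the paired test, left an adjusted p of 0.00278 in each order but liver<heart<lung, whose span of 3.04 points lost the call (adjusted p = 0.0579). With neighbours at 76 to 300 bp that order had 3.16 points (adjusted p = 0.0804). Beyond 1000 and up to 5000 bp heart<lung<liver and lung<heart<liver were reversed, at -2.60 and -0.560 points, and the calls of the others were lost, with 1.07 points in heart<liver<lung, 2.84 in lung<liver<heart, 2.54 in liver<heart<lung and 1.38 in liver<lung<heart (adjusted p 0.0618 to 0.164 by the exact permutation test). With at least 20 reads only 3 orders had neighbours, and liver<lung<heart had 6.75 points over 7 sites (adjusted p = 0.109). Pooling the reads lost no call. Without a library the span was 13.2 to 14.3 points in heart<lung<liver, 4.08 to 4.89 in heart<liver<lung, 22.7 to 24.8 in lung<heart<liver, 17.2 to 19.4 in lung<liver<heart, 1.98 to 4.89 in liver<heart<lung and 11.6 to 12.7 in liver<lung<heart, and only liver<heart<lung lost its call, without heart of horse 2 or 3, lung of horse 1, 2 or 4, or liver of horse 2 or 4. The causes were not tested. At the 41 runs and sites of the naming rule, 496 of 496 alternative spans stayed within 1 SD, taken as the larger SD of the end tissues. Leaving out a single library cannot move a tissue mean by 1 SD, so most of these outcomes were fixed in advance. Nothing is read from the count. Depth limits single sites, where a library's 95% Wilson interval had a median width of 30.2 points.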
